A study of Homo sapiens with 4 samples.

Results

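Of the 56271 gene rows counted in SKBR3 cells, 10 SR splicing factor genes are described here, SRSF1 to SRSF7, SRSF9, SRSF10 and SRSF11. SRSF8 and SRSF12 are also in the table but were listed with other RS-domain proteins, outside the counts and sums of the members. The members were taken by symbol with no rule on their values, though earlier results of these data were known. All 10 were in the table and all 10 passed the expression filter, an RPKM (counts scaled to library size and to exonic length in kilobases) above 1 in at least 2 of the 4 libraries. SKBR3 is an established HER2-positive breast cancer line. One group, the eGFP control, carried a lentiviral vector that expresses eGFP from the human ubiquitin C promoter. The other, VIRMA-overexpressing, carried the same kind of vector with HA-tagged full-length VIRMA and eGFP separated by a p2A sequence. In both, eGFP-positive cells were sorted and expanded as a pool, so that neither group is a single clone, and each was sequenced as 2 poly-A libraries, which the study describes as biological duplicates. The labels give a hypoxia chamber for both groups alike, while the study treats the sequenced cells as ordinary cultures, so the oxygen level is uncertain. In bulk libraries fewer cells that express a gene and less of its RNA per cell cannot be told apart. The comparison asks which transcripts differ when VIRMA, a scaffold subunit of the RNA methyltransferase that makes N6-methyladenosine (m6A), is raised.

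SR proteins carry 1 or more RNA recognition motifs and a tail rich in arginine-serine dipeptides, the RS domain. They bind exonic enhancers and help the spliceosome find exons, and several also escort mRNA out of the nucleus. The m6A reader YTHDC1 is known to act on splicing through SRSF3 and SRSF10. Many SR genes hold down their own output through poison exons, which are cassette exons with an early stop codon. When the protein is abundant the exon is included, and the transcript goes to nonsense-mediated decay (NMD), the pathway that removes mRNAs with premature stops.

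The counts pool these isoforms. In the GENCODE annotation (version 44, GRCh38) each of the 10 genes has at least 1 NMD transcript, 28 of 120 transcripts in all. Inside introns of the reference (MANE Select) transcript, 8 genes have 17 cassette exons used by NMD transcripts, and 11 of them, in 6 genes, hold the premature stop. Of the 17 exons, 16 are listed with the same ends among the deposited exons, and 1 is covered by a longer one. Reads from productive and poisoned transcripts were therefore counted together, and a changed count does not say which isoform changed. The stop regions of the following poison exons, from members that rose and members that fell, are shown 5′ to 3′ with the stop codon in capitals, because they lie inside what was counted.
SRSF6 (chr20:43459290-43459316, plus strand, 268-base exon in intron 2): gccttttgccatTAGacgcagggtgat
SRSF11 (chr1:70231103-70231129, plus strand, 109-base exon in intron 2): cctggttcagccTGAactatataccag
SRSF3 (chr6:36599840-36599866, plus strand, 456-base exon in intron 3): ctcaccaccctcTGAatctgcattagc
SRSF7 (chr2:38749307-38749333, minus strand, 449-base exon in intron 3): agtcagtcgcctTGAttcagaatgtca

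The libraries held 81446932 to 86375474 counts, and replicates differed by a median of 0.0647 (control) and 0.0624 (VIRMA-overexpressing) on the log2 scale over the tested genes with at least 10 counts in every library. VIRMA, listed as KIAA1429, had 710 and 682 control counts, and 3437 and 3460 with VIRMA raised, in log2 terms 2.29 ± 0.0685 (SE, edgeR adjusted p 9.74e-26). It met the expression filter only through the VIRMA-overexpressing libraries. All 10 SKBR3 markers, HER2 (ERBB2) and the luminal keratins among them, were above 118 CPM in every library. CPM is counts scaled to library size, with TMM factors. Of these markers 3 were higher in both controls and 4 in both VIRMA-overexpressing libraries, where 84.3% of all tested genes did not overlap between groups. KRT8 fell most (-0.51, SE 0.0196) and KRT7 rose most (0.49, SE 0.0226) on the log2 scale. Most blood markers were higher in both controls, though all but HBB and CSF1R had few counts. The 11 erythroid markers summed to 28.4 and 20.7 CPM in the controls and to 0.566 and 0.495 CPM in the VIRMA-overexpressing libraries, with 9 higher in both controls. HBB made up most of the sum and was at 0 in the VIRMA-overexpressing libraries, and GYPB was at 0 throughout. The 12 leukocyte markers summed to 31.4 and 29.0 CPM against 16.2 and 16.01 CPM, mostly through CSF1R, with 8 higher in both controls, and the pan-leukocyte marker PTPRC had 23 and 13 counts against 3 and 0. The T cell marker CD3E (73 and 60 counts against 87 and 90) and NKG7 (6 and 9 against 26 and 15) were higher in both VIRMA-overexpressing libraries. The 9 fibroblast and endothelial markers summed to 21.6 and 20.0 CPM against 16.5 and 18.0 CPM, with 5 higher in both controls. The SR genes together stood at 1811 CPM or more in every library, and the part of these markers in the results below was not tested.

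SR genes went both ways in VIRMA-overexpressing cells, as did tested genes in general. SRSF6, SRSF11, SRSF5 and SRSF4 rose and SRSF3, SRSF2, SRSF9, SRSF7 and SRSF1 fell, while SRSF10 did not pass the test. Thus 4 members were higher and 5 lower at an adjusted p below 0.05 over all 12205 tested genes (edgeR quasi-likelihood test), or 90% of the members against 71% of all tested genes. The shares of all tested genes were 35.1% higher and 35.9% lower, a split that moved with the scaling: 49.4% of the calls were higher with TMM, 57.5% with upper-quartile factors and 58.9% with library totals. The control and VIRMA-overexpressing libraries did not overlap in 9 of the 10 members, against 84.3% of all tested genes. The changes were modest. No member was also past 2-fold, which 7.46% of tested genes were (4.52% higher and 2.93% lower), and the median absolute log2 fold change was 0.29 over the members and 0.34 over all tested genes. The signed median was -0.06 over the members, from -0.47 to 0.79, and 0.01 over all tested genes. With upper-quartile factors or library totals in place of TMM the median of the members turned positive, at 0.015 and 0.029.

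**Figure D1:**
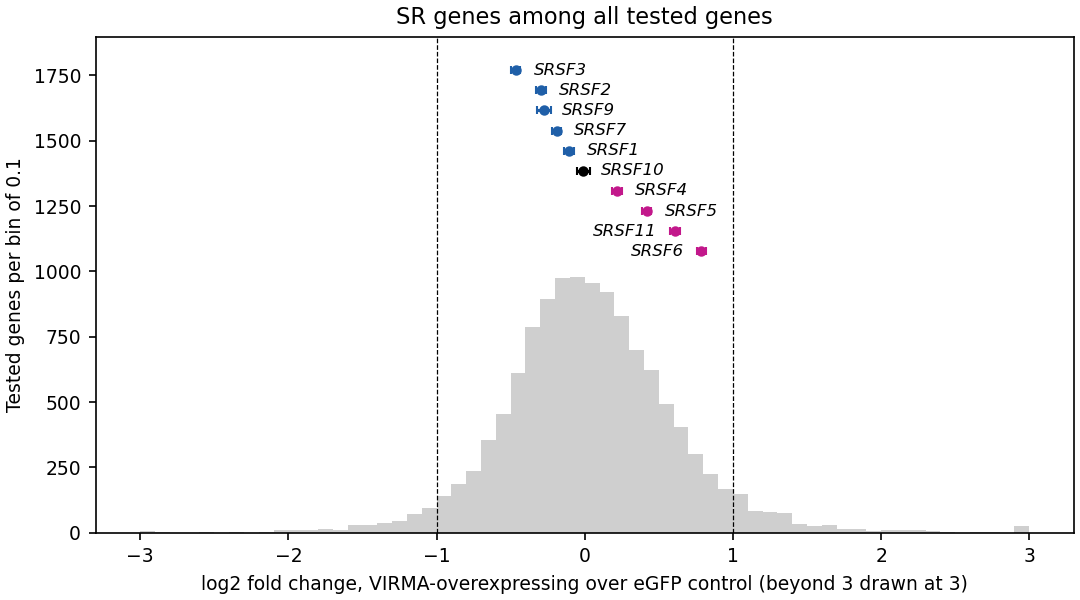
The grey histogram counts the 12205 tested genes by log2 fold change (x axis, VIRMA-overexpressing over eGFP control, bins of 0.1, values beyond 3 drawn at 3), and each point is an SR gene with its standard error, magenta where higher, blue where lower and black where it did not pass; the height of a point carries no value. The members run from SRSF3 at -0.47 to SRSF6 at 0.79, all between the dashed lines of the 2-fold threshold.

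SRSF4, SRSF5 and SRSF6 form a subfamily with a pair of RNA recognition motifs and long RS domains, and all 3 rose. By coding sequence, SRSF4 was the member most like both SRSF5 (68.4% of the shorter sequence) and SRSF6 (70.6%), where the median over 66 pairs of SR genes, SRSF8 and SRSF12 included, was 60%. SRSF4 itself scored highest against SRSF3 (72.1%), which fell and has a much shorter coding sequence (495 against 1485 bases). SRSF6 is known to regulate the splicing of tau, and lies on chromosome 20, 43457928 to 43464247, plus strand. It had 31756 and 31676 control counts, and 57545 and 53536 with VIRMA raised. Both VIRMA-overexpressing libraries were far above both controls, and the gap between the groups was many times the gap within either. Its mean rose from 384 ± 2.38 to 663 ± 22.6 CPM (SD, n = 2), in log2 terms 0.79 ± 0.0294 (SE, edgeR adjusted p 6.975e-23), or 1.73-fold, above the change of 91.6% of tested genes.

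SRSF5, whose transcript is known to respond to insulin and to growth signals, lies on chromosome 14, 69726900 to 69772005, plus strand. It had 24454 and 24962 control counts, and 34540 and 32437 with VIRMA raised, with no overlap. The mean rose from 299 ± 3.03 to 399.6 ± 10.95 CPM (SD, n = 2), in log2 terms 0.42 ± 0.0303 (SE, edgeR adjusted p 1.174e-14). SRSF4, the largest of this subfamily (chromosome 1, 29147743 to 29181987, minus strand), had 8483 and 8620 control counts, and 10274 and 9886 with VIRMA raised. Its rise was the smallest of the subfamily, from 103.5 ± 0.715 to 120.3 ± 1.23 CPM (SD, n = 2), in log2 terms 0.22 ± 0.0354 (SE, edgeR adjusted p 1.488e-06). Over the alternative settings that keep all libraries, the log2 fold changes ran from 0.74 to 0.87 for SRSF6, from 0.37 to 0.50 for SRSF5 and from 0.17 to 0.30 for SRSF4.

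SRSF11, an SR protein first described as p54 and known for its part in neuronal microexon splicing, lies on chromosome 1, 70205682 to 70253052, plus strand. It had 12402 and 12147 control counts, and 19188 and 18760 with VIRMA raised. The VIRMA-overexpressing libraries stood at 226.3 and 226.6 CPM, almost on each other, and both controls were well below, at 151 and 147 CPM. The log2 fold change by edgeR was 0.61 with an SE of 0.0322 (adjusted p 1.799e-18), or 1.52-fold, above the change of 86.5% of tested genes.

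**Figure D2:**
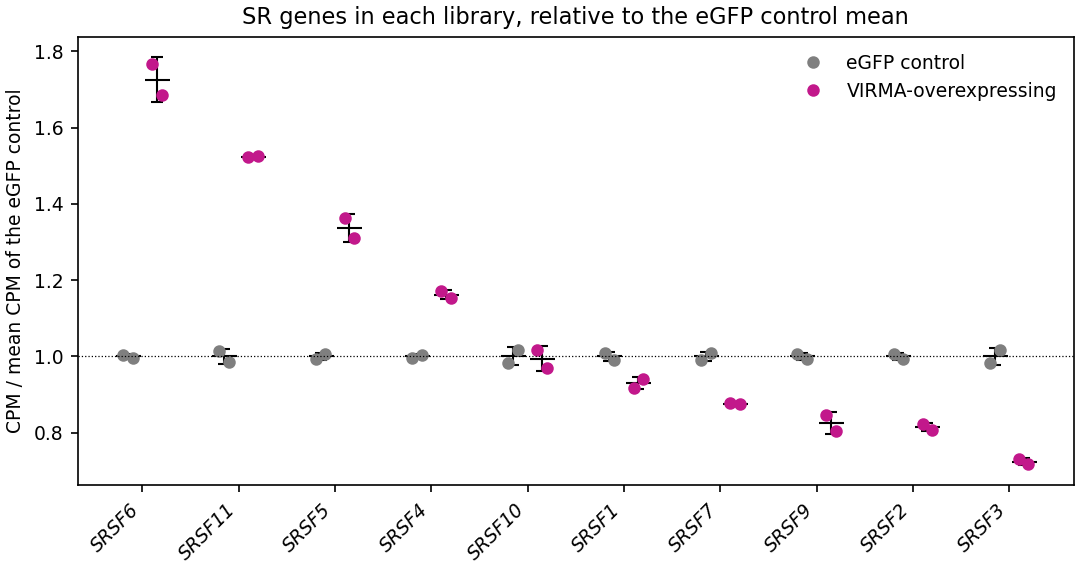
CPM of each SR gene in each library, divided by the mean CPM of the 2 eGFP control libraries (y axis, not starting at 0), with eGFP control in grey and VIRMA-overexpressing in magenta; horizontal marks are group means and bars are SD (n = 2). The magenta points lie above the grey ones for SRSF6, SRSF11, SRSF5 and SRSF4 and below them for the other genes except SRSF10, where 1 magenta point is above both grey points and 1 is below both.

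SRSF3 and SRSF7 are the small SR proteins with a single RNA recognition motif that hand mRNA to the export receptor NXF1, and both fell. SRSF7 was closest to SRSF3 by coding sequence, at 68.9%, but SRSF3 scored higher against SRSF4 (72.1%) and SRSF11 (71.1%), which rose. SRSF3 has the shortest coding sequence (495 bases) and SRSF4 (1485) and SRSF11 (1455) the longest. Identity over the shorter sequence can run high for such pairs, so these scores do not settle kinship. SRSF3, a proto-oncogene needed for cell proliferation, lies on chromosome 6, 36594353 to 36605600, plus strand, and had 21623 and 22461 counts in the controls against 16514 and 15855. Both VIRMA-overexpressing libraries were below both controls by more than the replicates differed. Its mean went from 267 ± 5.99 to 193 ± 2.28 CPM (SD, n = 2). The log2 fold change by edgeR stood at -0.47 with an SE of 0.0316 (adjusted p 1.875e-15), the lowest of the 10 members. SRSF7 (chromosome 2, 38743599 to 38751494, minus strand) binds RNA through a zinc knuckle as well. It had 12598 and 12911 control counts, and 11480 and 11195 with VIRMA raised, also without overlap. Its edgeR log2 fold change stood at -0.19, SE 0.0333, adjusted p 5.033e-06, from 154 ± 2.00 to 135 ± 0.104 CPM (SD, n = 2), and it was -0.119 with upper-quartile factors and -0.104 with library totals, where it still passed.

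SRSF1 and SRSF9 are a closely related pair, each the other's nearest member by coding sequence (70.4%), and both fell. SRSF1, the first SR protein described as an oncogene and overexpressed in many breast tumours, lies on chromosome 17, 58003360 to 58007346, minus strand. Counts were 12168 and 12044 for control and 11411 for each VIRMA-overexpressing library. After scaling, the control libraries stood at 148 and 145 CPM and the VIRMA-overexpressing libraries at 135 and 138 CPM, a narrow gap without overlap. The log2 fold change by edgeR came to -0.11 with an SE of 0.0337 (adjusted p 0.00596), and this call rests on the scaling: it did not pass with upper-quartile factors (-0.034, adjusted p 0.372) or library totals (-0.02, adjusted p 0.611). It also did not pass without VIRMA-overexpressing replicate 1 (-0.088, adjusted p 0.0649). SRSF9 (chromosome 12, 120461668 to 120469793, minus strand), which has a short RS domain, had 4451 and 4426 control counts, and 3856 and 3583 with VIRMA raised. Its mean was 53.7 ± 0.451 against 44.4 ± 1.55 CPM (SD, n = 2), in log2 terms -0.28 ± 0.0463 (SE, edgeR adjusted p 2.506e-06).

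SRSF2, which binds exonic enhancers and is recurrently mutated in myeloid neoplasms, lies on chromosome 17, 76734115 to 76737374, minus strand. It had 15595 and 15483 control counts, and 13117 and 12571 with VIRMA raised, which lay below both controls. The mean fell from 188 ± 1.79 to 153 ± 2.00 CPM (SD, n = 2), in log2 terms -0.30 ± 0.0324 (SE, edgeR adjusted p 4.665e-10). SRSF8, an intronless copy of SRSF2 with 83.6% identity over the shorter coding sequence, had 4844 and 4678 control counts, and 6396 and 5783 with VIRMA raised. It thus rose where its parent gene fell, in log2 terms by 0.33 ± 0.0435 (SE, edgeR adjusted p 1.98e-08). Whether reads that match both copies were split, dropped or counted once is not given in the sources used here, so both values are uncertain to that extent.

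SRSF10 works as a repressor of splicing when it is dephosphorylated in heat shock or mitosis, and lies on chromosome 1, 23964804 to 23980927, minus strand. It had 5647 and 5875 control counts, and 6016 and 5602 with VIRMA raised. The groups overlapped, with the VIRMA-overexpressing libraries at 70.95 and 67.7 CPM on either side of the controls at 68.6 and 70.89 CPM. Its edgeR log2 fold change was -0.01 with an SE of 0.0411 (adjusted p 0.862), and the 95% interval ran from -0.09 to 0.07. The sign depended on the setting, at 0.063 with upper-quartile factors and 0.077 with library totals. SRSF12, its nearest relative by coding sequence at 66.2%, did not reach the expression filter, with 19 to 26 counts in every library.

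Exons of some members overlap other genes in the table. Exons of GATC on the opposite strand cover 46.2% of the counted length of SRSF9 and those of MFSD11 cover 36.7% of SRSF2. GATC had 976 and 939 control counts, and 1036 and 1104 with VIRMA raised, and MFSD11 had 1634 and 1654 against 1608 and 1359. A clone-named gene on the opposite strand covers 13.2% of SRSF1 and had 54 to 98 counts, and another on the same strand covers 9.91% and had 0 counts in every library. The library kit keeps strand, but whether the counting used it is not given, so part of the reads of these 3 members may have been assigned otherwise. SRSF4 shares 1.90% of its length with the ultraconserved feature uc_338 on the same strand, which had 28 to 54 counts.

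Levels can be compared between genes only per exonic length, as RPKM. SRSF6 was the highest member in the controls (83.6 ± 0.519 RPKM, SD, n = 2), followed by SRSF2 (62.3 ± 0.593), SRSF5 (55.8 ± 0.565), SRSF1 (43.9 ± 0.512), SRSF7 (38.2 ± 0.494), SRSF3 (37.5 ± 0.842), SRSF11 (17.5 ± 0.335), SRSF9 (14.3 ± 0.121), SRSF4 (11.6 ± 0.0804) and SRSF10 (6.78 ± 0.160). SRSF7 and SRSF3 overlapped between control libraries and cannot be ordered, and the other neighbours did not overlap. In VIRMA-overexpressing cells SRSF5 (74.6 ± 2.04 RPKM) stood above SRSF2 (50.8 ± 0.663) and SRSF4 (13.5 ± 0.138) above SRSF9 (11.9 ± 0.414), the reverse of the controls. SRSF3 (27.1 ± 0.320) and SRSF11 (26.7 ± 0.0283) came to almost the same level there, after a gap of 19.9 RPKM in the controls. The counted length holds exons outside the reference transcript, retained introns among them. The reference transcript covers from 25.9% of it in SRSF4 to 94.1% in SRSF6, with 27.9% in SRSF5 and 62.6% in SRSF2. The RPKM of SRSF4, SRSF5 and others with little covered can therefore understate their level per reference mRNA. The reference mRNA of SRSF1 (5343 bases) is longer than the counted length of that gene (3340 bases). Part of that mRNA was thus not counted, and the SRSF1 values rest on the rest of it. The order of the members, the reversals and the shares of summed RPKM below hold per counted length. Per reference mRNA the order may differ, with SRSF6 not highest and SRSF5 above SRSF2 in both groups.

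**Figure D3:**
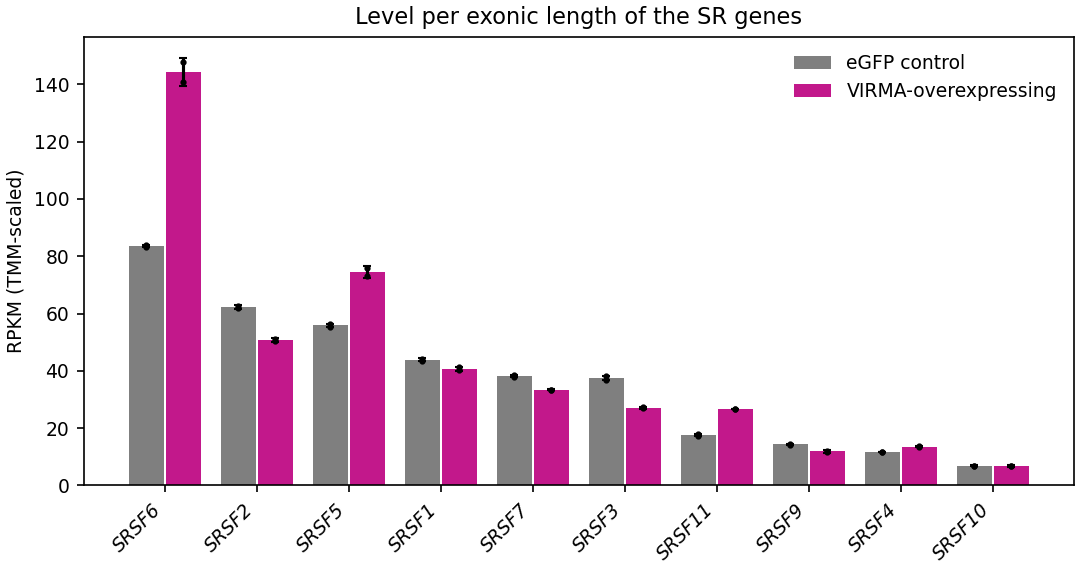
Bars are mean RPKM (y axis, from 0) of each SR gene in eGFP control (grey) and VIRMA-overexpressing (magenta) cells, with SD bars (n = 2) and a dot for each library. Per counted exonic length, SRSF6 is the highest gene in both groups and goes from 83.6 to 144 RPKM, while SRSF2 and SRSF5 change places. The order may differ per reference mRNA.

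Summed over the 10 members, the libraries stood at 1811 and 1817 CPM in the controls and at 2169 and 2112 CPM with VIRMA raised. The SR pool was thus larger in both VIRMA-overexpressing libraries, at 2141 ± 40.4 against 1814 ± 4.20 CPM (SD, n = 2), and no single-value test of 2 libraries against 2 can give a two-sided exact permutation p below 0.333. The 4 members that rose went together from 936 and 934 CPM to 1433 and 1385 CPM. SRSF6 alone went from a mean of 384 to 663 CPM, so the larger sum is mostly this gene and not a rise of the family. The 5 that fell went from 807 and 812 CPM to 665 and 660 CPM. The pool also changed its make-up: SRSF6 took 22.5% ± 0.143 of the summed RPKM in control cells against 33.6% ± 0.517 with VIRMA raised (SD, n = 2). SRSF2 went from 16.8% ± 0.162 to 11.8% ± 0.0662 and SRSF3 from 10.1% ± 0.225 to 6.31% ± 0.0434. As an example chosen after the values were seen, the RPKM of SRSF6 was 2.28 and 2.19 times that of SRSF3 in the controls and 5.40 and 5.23 times in the VIRMA-overexpressing libraries, a ratio within a library that no scaling can alter.

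**Figure D4:**
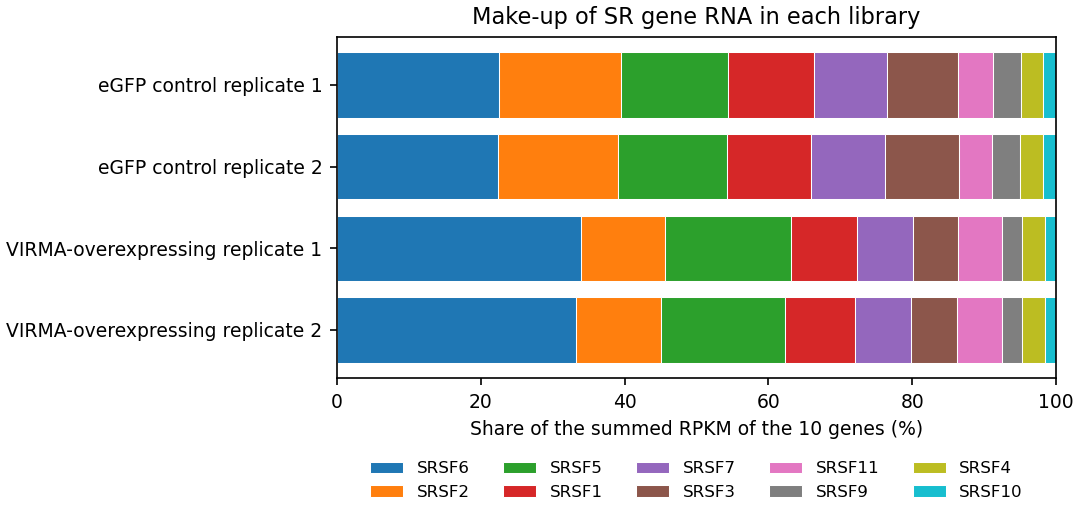
Each bar is 1 library, divided by the share (x axis, percent) that each SR gene took of the summed RPKM of the 10 genes. SRSF6 takes 22.6% and 22.4% in the eGFP control libraries and 33.9% and 33.2% in the VIRMA-overexpressing libraries, and SRSF2, SRSF3, SRSF7, SRSF1, SRSF9 and SRSF10 take smaller shares there.

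Genes around the SR proteins were described by 7 lists, beside the 71% of all tested genes that passed and their median of 0.01. SR proteins are phosphorylated in the cytoplasm by SRPK kinases, carried into the nucleus by transportin-SR (TNPO3) and phosphorylated further by CLK kinases. Of the 10 genes for SR kinases and this importer, 7 were higher and 2 lower at an adjusted p below 0.05, with a median log2 fold change of 0.37. CLK1 stood at 19.5 and 19.8 CPM in the controls and at 48.4 and 53.4 CPM in the VIRMA-overexpressing libraries, and was the only gene of this list past 2-fold (1.37, SE 0.0577, edgeR adjusted p 2.278e-21). CLK4 followed at 0.97 (SE 0.0859). SRPK1 (-0.21, SE 0.0452) and TNPO3 (-0.30, SE 0.0720) fell, and SRPK2 was at -0.08 (edgeR adjusted p 0.195).

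Among other proteins with RS domains, 29 of 31 genes were tested, 18 were higher and 5 lower, with a median of 0.25. The splicing coactivators RBM39 (0.91, SE 0.0298) and RBM25 (0.81, SE 0.0346) rose most, while the helicase gene DDX23 (-0.48, SE 0.0362) and RNPS1 (-0.32, SE 0.0356), a component of exon junction complexes, fell most. The large scaffold protein genes SRRM2 (0.33, SE 0.0261) and SRRM1 (0.15, SE 0.0413) rose. The transformer pair split, as TRA2A rose (0.45, SE 0.0398, edgeR adjusted p 2.673e-12) from 60.1 and 60.9 to 82.1 and 83.0 CPM, and TRA2B fell (-0.13, SE 0.0342, edgeR adjusted p 0.00132). Like the SR genes, TRA2A, TRA2B and other splicing factor genes control their own output through NMD. Of 10 such autoregulated genes outside the SR family, 4 were higher and 5 lower, with a median of -0.07. The median turned positive with upper-quartile factors (0.002) and library totals (0.016). Each of the 10 genes is also counted in the RS-domain, kinase, hnRNP or core spliceosome list. RBM39 and CLK1 were the highest of them and SNRPB (-0.83, SE 0.0303) and HNRNPD (-0.42, SE 0.0304) the lowest. PTBP2, also among those that rose, met the expression filter only through the VIRMA-overexpressing libraries.

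The hnRNP proteins, which often oppose SR proteins at exons, leaned lower: 17 of 26 genes fell and 6 rose, with a median of -0.19. HNRNPAB (-0.56, SE 0.0286) and HNRNPM (-0.54, SE 0.0320) fell most, and HNRNPH1 (0.83, SE 0.0287) and PTBP2 (0.59, SE 0.0864) rose most. PTBP2 stood at 0.842 and 0.767 RPKM in the controls and at 1.23 and 1.20 RPKM with VIRMA raised. It thus met the expression filter only through the group where it is high, so its place among the genes that rose carries little weight. The core spliceosome leaned lower as well, with 29 of 39 genes lower, 5 higher and a median of -0.33. SNRPB and SNRPG (-0.77, SE 0.0421), which encode Sm ring proteins, fell most, and SF3B1 (0.34, SE 0.0343) and PRPF3 (0.30, SE 0.0456) rose most.

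**Figure D5:**
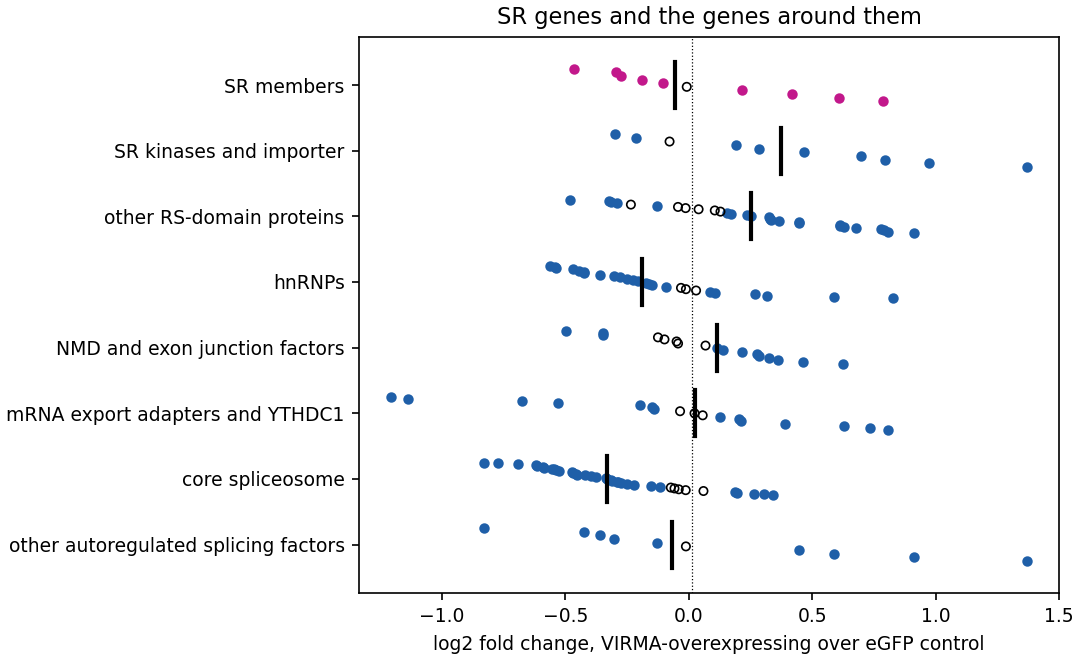
Each point is a tested gene placed by its log2 fold change (x axis, VIRMA-overexpressing over eGFP control), in rows by list, filled where the edgeR adjusted p was below 0.05 and open otherwise; black bars are list medians and the dotted line is the median of all tested genes, 0.01. Points are spread vertically only to separate them. Medians run from -0.33 for the core spliceosome to 0.37 for the SR kinases and importer, and the SR members lie on both sides of 0.

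NMD and exon junction factors act on the poisoned SR transcripts. Of 18 genes 17 were tested, 9 were higher and 3 lower, with a median of 0.11. The kinase gene SMG1 (0.63, SE 0.0384) and UPF3A (0.46, SE 0.0359) rose most. The helicase gene UPF1 (-0.35, SE 0.0334, edgeR adjusted p 1.677e-11), which SMG1 phosphorylates, fell from 171 and 166 to 132 and 133 CPM, and the exon junction core gene EIF4A3 fell by 0.50 on the log2 scale (SE 0.0314). Among mRNA export adapters and YTHDC1, 17 of 18 genes were tested, with 7 higher, 7 lower and a median of 0.02. ALYREF, an adapter that like SRSF3 and SRSF7 hands mRNA to NXF1, fell past 2-fold from 176 and 172 to 76.6 and 81.6 CPM (-1.14, SE 0.0367, edgeR adjusted p 7.861e-25), as did THOC3 (-1.21, SE 0.0714). DDX39B (0.81, SE 0.0356) and THOC2 (0.74, SE 0.0559) rose most. NXF1 itself rose by 0.20 on the log2 scale (SE 0.0366) and YTHDC1 by 0.39 (SE 0.0450, edgeR adjusted p 1.467e-09), the latter from 48.5 and 51.8 to 67.3 and 64.1 CPM. The sign of the median of this list turned with 3 other filters on low counts (-0.05 to -0.036). It also turned without VIRMA-overexpressing replicate 1 (-0.049). The 3 filters admit SARNP, the gene of this list left out of the main test, with 22 to 38 counts. They also shifted the genes shared with the main test by a median of -0.0436 to -0.0297.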

How the data were processed

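Poly-A RNA of 2 eGFP control and 2 VIRMA-overexpressing SKBR3 cultures was sequenced. The authors trimmed reads with Trimmomatic 0.39, aligned them to hg38 with STAR 2.5.2a and deposited unnormalized featureCounts counts for each gene. The strand setting and the treatment of multi-mapping reads are not given in the sources used here. Columns of the VIRMA-overexpressing libraries carry only the transcript number of full-length VIRMA and were assigned as the group other than the named controls.

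The 12205 genes whose RPKM exceeded 1 in 2 or more of the 4 libraries entered edgeR's quasi-likelihood test (edgeR 4.0.16, R 4.3.3) with TMM factors, a model of group alone and p-values adjusted over all of them by Benjamini-Hochberg. CPM and RPKM use TMM-scaled library sizes. Standard errors were taken as log2 fold change over root F. In simulated counts for these 12205 genes, 200 were changed. The test recovered 79% of genes changed by 0.5 and 99% of those changed by 1.5 (log2), and called 11 unchanged genes. In the data 71% of tested genes passed, a far larger share than was changed in the simulation. These rates therefore do not carry over to the data. Alternatives used DESeq2 1.42.0 and limma 3.58.1, other scalings, filters, a replicate block and leaving out libraries. The p-values measure the spread between replicate libraries, and VIRMA and other differences between the transduced pools cannot be told apart.

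Members and lists were chosen with earlier results of these data known. Named were all members, VIRMA, per list the 2 highest and 2 lowest genes that passed and any past 2-fold, and a preset set (SRSF8, SRSF12, TRA2A, TRA2B, SRRM1, SRRM2, SRPK1, SRPK2, CLK1, CLK4, TNPO3, YTHDC1, ALYREF, NXF1, UPF1, SMG1); markers and overlapping genes are named besides. Coding sequences (MANE Select, GENCODE 44, GRCh38) were aligned globally with low gap costs, which sets a high baseline. Identity was counted over the shorter sequence, so a short sequence set against a long sequence can score high. A planned comparison of protein sequences was not run. Libraries with the same replicate number shared little deviation over genes (correlation 0.0507). This does not show whether they were prepared together.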

Additional observations from a re-analysis of the deposited data

How the results depend on the processing

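SRSF2 to SRSF7, SRSF9 and SRSF11 kept their direction and passed under all 9 alternatives that keep every library and with each library left out; no member passed 2-fold under any of them. The scaling shifted all genes: against TMM, the all-gene median moved by 0.0715 with upper-quartile factors and by 0.0857 with library totals (log2). Under these 2 scalings SRSF1 did not pass (-0.034 and -0.02) and SRSF10 turned positive without passing (0.063 and 0.077). The median log2 fold change, given in each case for upper-quartile factors, library totals, filterByExpr, no filter and at least 10 counts in every library, was 0.015, 0.029, -0.101, -0.091 and -0.087 for the SR members, 0.446, 0.461, 0.331, 0.341 and 0.345 for the SR kinases and importer, and 0.323, 0.337, 0.193, 0.202 and 0.207 for other RS-domain proteins. It was -0.117, -0.103, -0.232, -0.223 and -0.218 for the hnRNPs, 0.186, 0.2, 0.067, 0.076 and 0.081 for NMD and exon junction factors, and 0.095, 0.109, -0.05, -0.041 and -0.036 for the export list. It was -0.26, -0.246, -0.376, -0.366 and -0.362 for the core spliceosome, and 0.002, 0.016, -0.113, -0.104 and -0.099 for other autoregulated genes. With library totals 4 export genes were lower, against 7. Over all genes, 1044 were higher and 808 lower past 2-fold with filterByExpr, 1137 and 820 with no filter, 930 and 689 with at least 10 counts, and 189 and 173 when tested against 2-fold, against 552 and 358 with the RPKM filter, and the first 3 of these test more genes.

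With 1 library left out, a lone library is assumed to vary like the other group. The medians then ran from -0.067 to -0.049 for the SR members, from 0.358 to 0.387 for the kinases, from 0.249 to 0.273 for RS-domain proteins, from 0.066 to 0.142 for NMD factors (0.066 without eGFP control replicate 2) and from -0.049 to 0.058 for the export list. SRSF1 ran from -0.123 to -0.088 and did not pass without VIRMA-overexpressing replicate 1. SRSF10 ran from -0.043 to 0.025 and turned positive without eGFP control replicate 2 (0.015) or VIRMA-overexpressing replicate 2 (0.025). With the replicate number as a block, SRSF1 stood at -0.105, no member's call changed and 72.2% of tested genes passed. The sample titles link the same-numbered libraries by number alone and do not say whether they were prepared together. The cause of these shifts was not tested.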
